A study of Homo sapiens with 6 samples.

Results

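The genes described here encode 8 transcription factors of the biliary and hepatic lineages, namely SOX9, SOX4, HNF4A, FOXA1, FOXA2, ONECUT1, ONECUT2 and GATA6. They were taken by gene symbol from the 19470 genes of the count table, in which all 8 were listed. HCCC9810 is an established human cholangiocarcinoma (CCA) cell line. Wild type HCCC9810 cells were exposed to isolinderalactone (ILL), a sesquiterpene lactone, at 20 μM or to vehicle for 24 h, and read counts per gene were obtained for 3 ILL and 3 control libraries. The sources do not say whether the libraries of a group came from separate cultures, so the p-values measure only the spread between these libraries, which may be technical.

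Hepatocytes and cholangiocytes, the epithelial cells of the bile ducts, arise from a common progenitor in the fetal liver. HNF4A, a nuclear receptor, maintains the hepatocyte program, whereas SOX9 and SOX4 act in bile duct formation and SOX9 marks cholangiocytes. FOXA1 and FOXA2 open chromatin at liver genes, GATA6 acts in endoderm, and ONECUT1 (HNF6) and ONECUT2 influence the choice between the hepatocyte and the biliary fate.

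Total counts ranged from 34282764 to 37758569 per library, and 13066 genes passed the filter on low counts. A gene passed the test when its adjusted p was under 0.05 (edgeR quasi-likelihood test, Benjamini-Hochberg adjustment), and was a differentially expressed gene (DEG) when its fold change was also above 2 or below 0.5. The biliary character of the cells was visible in the keratins KRT7 and KRT19, with mean control levels of 1785 and 2126 CPM (counts scaled to library size by the trimmed mean of M-values, TMM). CFTR, SCTR and PKHD1, also genes of mature bile duct cells, had 0 counts in every library. Among markers of other cells, CD3D had 0 counts in every library, DCN had at most 1 and PTPRC at most 9, whereas others were present. COL1A1, a collagen gene of fibroblasts, rose from 10.2 ± 1.40 to 14.9 ± 1.94 CPM (n = 3 each, edgeR adjusted p = 0.000356), and LUM had 43 to 126 counts. VWF, an endothelial gene, had 2, 13 and 0 counts in control and 25, 23 and 13 in ILL libraries and was a DEG (edgeR adjusted p = 0.0179). The summed level was 12.1 to 14.2 against 16.8 to 18.4 CPM for the 7 fibroblast markers and 1.03 to 1.65 against 1.77 to 1.91 CPM for the 5 endothelial markers (control against ILL). The summed level of the 8 hematopoietic markers was 37.8 to 42.3 CPM in control and 112.8 to 119.0 CPM in ILL libraries, nearly all of it CD68, a lysosomal protein gene that other cells also use. The part of these markers in the results was not tested.

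Of the 8 factors, 7 had enough counts for testing. HNF4A was the only DEG, and it fell. By comparison, 23.9% of all tested genes were DEGs, 12.5% higher and 11.4% lower with ILL. By adjusted p alone, SOX4, FOXA1, FOXA2 and ONECUT2 rose and SOX9 and HNF4A fell, which is 6 of 7, against 73.1% of all tested genes (36.2% higher and 36.9% lower). ILL and control values did not overlap for 5 of the 7 tested factors, 3 higher and 2 lower, against 75.4% of all tested genes. The median log2 fold change of the 7 was 0.33, and that of all tested genes was -0.0012. The summed level of the 8 factors stayed within 146.2 to 154.7 CPM in control and 147.1 to 152.2 CPM in ILL libraries.

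**Figure D1:**
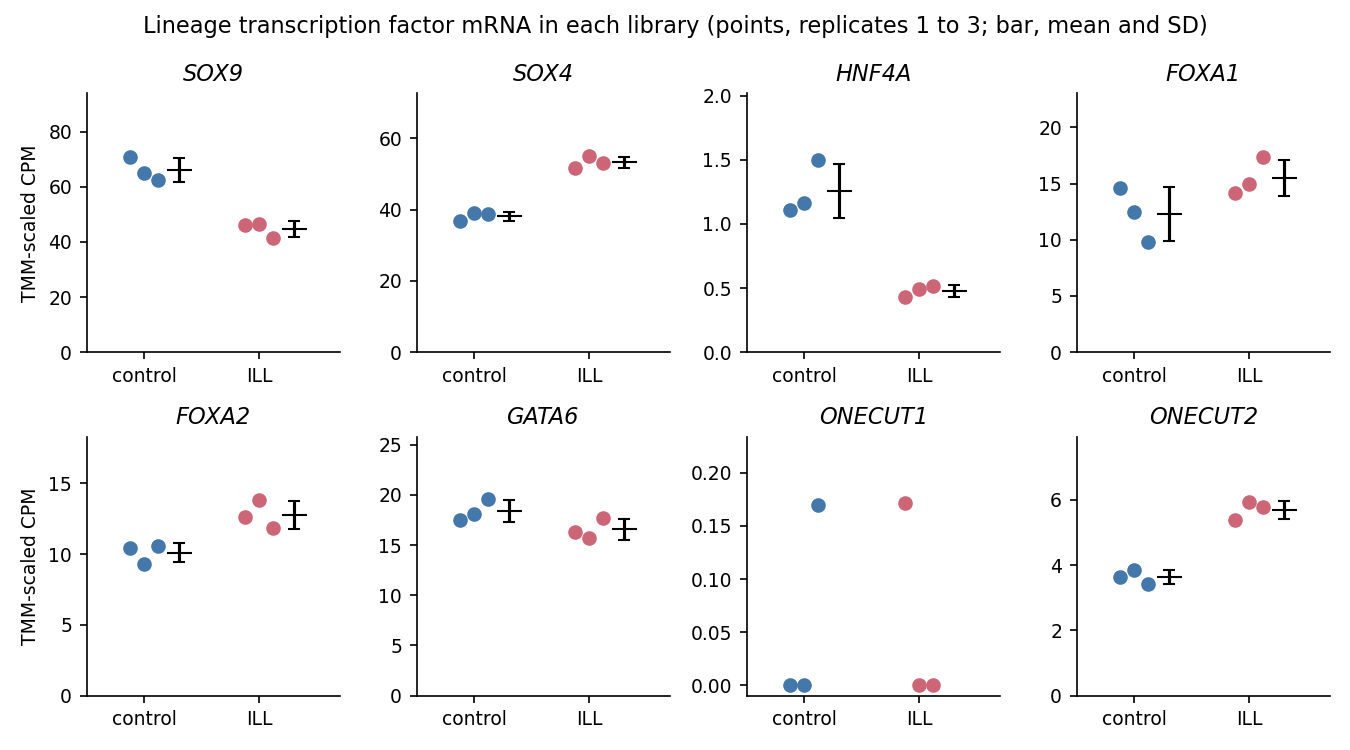
TMM-scaled CPM of each factor in the 3 control and 3 ILL libraries, with 1 panel per gene, points for libraries and bars for the mean and SD. SOX9 and HNF4A sit lower in all ILL libraries, SOX4, FOXA2 and ONECUT2 sit higher, and ONECUT1 has counts in 1 library of each group (no mean drawn).

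HNF4A lies on chr20:44355700-44434596 (GRCh38, plus strand). It had the fewest counts of the 7 tested factors, with 43, 41 and 53 counts in the control libraries and 15, 17 and 18 in the ILL libraries. Every ILL value was below every control value. Its level was 1.26 ± 0.211 CPM in control and 0.479 ± 0.0450 CPM in ILL cells (mean ± SD, n = 3 each). This gave a log2 fold change of -1.39 (SE 0.43), a level 2.61-fold lower with ILL, with an adjusted p of 0.00629 by edgeR's quasi-likelihood test. The antisense gene HNF4A-AS1 shared no exon base with HNF4A in the GENCODE 29 annotation. In bulk RNA, fewer cells of a type and less RNA per cell cannot be told apart.

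HNF4A is transcribed from 2 alternative promoters, and gene counts do not separate their transcripts. Since HNF4A was the only DEG among the factors, the 250 bases before each start are given from RefSeq (GRCh38.p14, plus strand, 5′ to 3′). The distal window is chr20:44355449-44355698, the proximal window is chr20:44400989-44401238, and the starts are 45540 bases apart. Capitals mark the motif letters described next, and no GENCODE 29 exon overlaps either window.

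HNF4A distal: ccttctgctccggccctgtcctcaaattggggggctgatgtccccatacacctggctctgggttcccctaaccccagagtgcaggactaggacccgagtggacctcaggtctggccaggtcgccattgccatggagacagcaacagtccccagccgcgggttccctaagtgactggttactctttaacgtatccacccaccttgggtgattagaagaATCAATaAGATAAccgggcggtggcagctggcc

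HNF4A proximal: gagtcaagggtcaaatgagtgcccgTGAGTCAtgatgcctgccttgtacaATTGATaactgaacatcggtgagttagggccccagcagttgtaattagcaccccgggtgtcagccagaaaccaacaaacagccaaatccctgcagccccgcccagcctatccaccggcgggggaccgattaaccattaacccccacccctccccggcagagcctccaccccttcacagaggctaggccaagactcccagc

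Letters bound by the factor families described here or by signal-dependent factors were searched on both strands of these windows. The distal window held ATTGAT (ONECUT) on the minus strand, with its first letter in the window 33 bases before the start. It also held AGATAA, the only form of the GATA letters searched, on the plus strand at 26 bases before the start. The proximal window held ATTGAT on the plus strand at 200 bases and TGANTCA (AP-1, which reads alike on both strands) at 225 bases before its start. TGATAA, another form of the GATA letters, was not searched or marked, and it occurs in the proximal window, overlapping ATTGAT. Among 35116 RefSeq promoter windows of the same length, ATTGAT occurred in 5.58%, AGATAA in 9.17% and TGANTCA in 6.57%. CAAAGTCCA (HNF4), present in 0.325% of all windows, was in neither.

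**Figure D2:**
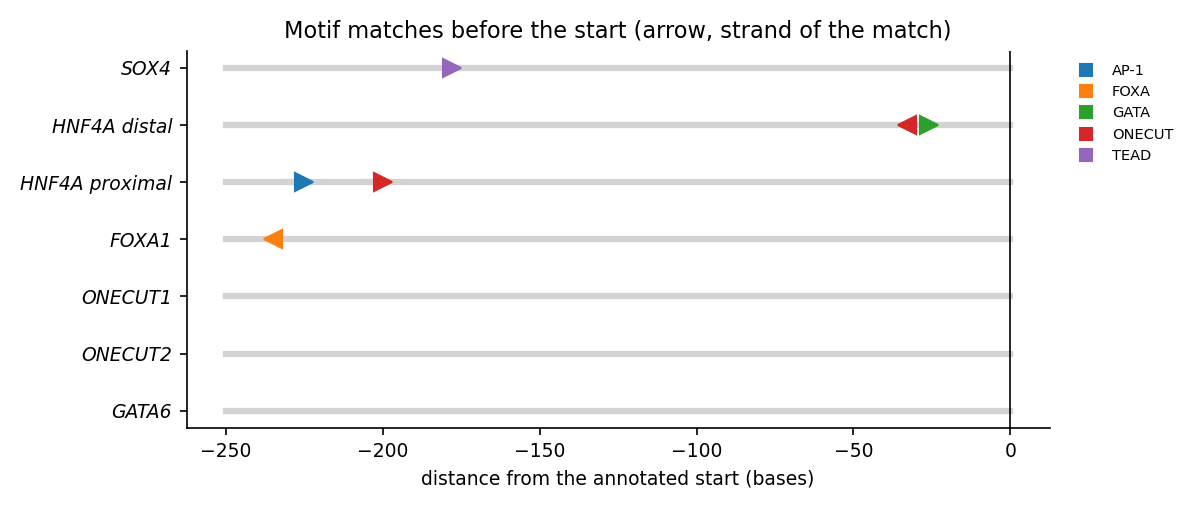
Distance of each motif match from the annotated RefSeq start, in bases, for the 7 RefSeq promoter windows of the 6 factors that matched the promoter table. Arrowheads point along the strand of the match. The proximal and the distal HNF4A windows have 2 matches each, while ONECUT1, ONECUT2 and GATA6 have none.

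The other windows held few of these letters. SOX4 had GGAATG (TEAD, in 11.9% of all windows) on the plus strand at 178 bases before the start. FOXA1 had TGTTTNC (FOXA, in 15.5% of all windows) on the minus strand at 235 bases before it. AACAAT (SOX, 8.98%), the NF-kB motif (1.4%) and TGATGNAA (ATF4, 3.14%) were in none of the 7 windows. These are matches of letters and not measured binding sites. SOX9 and FOXA2 were not in the promoter table.

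SOX9 and SOX4, both HMG-box factors, moved in opposite directions. SOX9 (chr17:72121020-72126420, plus strand) had 2746, 2282 and 2210 counts in control and 1619, 1597 and 1448 in ILL libraries. Its level fell from 66.1 ± 4.22 to 44.7 ± 2.84 CPM (n = 3 each), a log2 fold change of -0.56 (SE 0.07, edgeR adjusted p = 6.9e-08). SOX4 (chr6:21592768-21598619, plus strand) had 1425, 1373 and 1366 counts in control and 1810, 1889 and 1855 in ILL libraries. In neither gene did the groups overlap, and both changes were smaller than the DEG cutoff. SOX4 rose from 38.1 ± 1.26 to 53.2 ± 1.60 CPM (n = 3 each), a log2 fold change of 0.48 (SE 0.07, edgeR adjusted p = 4.6e-07). An antisense gene shares 168 exon bases with SOX4, 2.87% of its exon length, and counting by strand is not stated.

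The ratio of SOX9 to SOX4 counts within a library does not depend on library scaling. It was 1.93, 1.66 and 1.62 in control and 0.895, 0.845 and 0.781 in ILL libraries, so the larger count changed from SOX9 to SOX4 in all 3 ILL libraries. On the log2 scale the ratio averaged 0.79 ± 0.136 in control and -0.25 ± 0.0987 in ILL libraries (SD, n = 3 each), a difference of -1.04. The exact permutation p of that difference (both sides) was 0.1, which is the smallest that 3 against 3 libraries allow.

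The forkhead factors FOXA1 and FOXA2 had like fold changes, both under the DEG cutoff. FOXA1 (chr14:37589984-37596059, minus strand) had 568, 438 and 348 counts in control and 496, 516 and 606 in ILL libraries. The groups overlapped after scaling, since control library 1 (14.6 CPM) lay above ILL library 1 (14.2 CPM). FOXA1 averaged 12.3 ± 2.40 and 15.5 ± 1.64 CPM (n = 3 each), a log2 fold change of 0.33 (SE 0.13, edgeR adjusted p = 0.0234). Without control library 3 it was 0.19 (adjusted p = 0.175), without ILL library 3 it was 0.24 (adjusted p = 0.128), and with library size as the only scaling it was 0.26 (adjusted p = 0.0729). The 3 limma fits on FPKM gave FOXA1 an adjusted p of 0.0881, 0.0920 and 0.212. FOXA2 (chr20:22581005-22585455, minus strand) had 406, 327 and 373 counts in control and 443, 476 and 414 in ILL libraries. Its groups did not overlap. FOXA2 rose from 10.1 ± 0.692 to 12.8 ± 1.0 CPM (n = 3 each), a log2 fold change of 0.34 (SE 0.12, edgeR adjusted p = 0.0121), and without control library 2 the adjusted p was 0.0585 and without ILL library 2 it was 0.0584. The log2 ratio of FOXA1 to FOXA2 counts was 0.48, 0.42 and -0.10 in control and 0.16, 0.12 and 0.55 in ILL libraries (exact permutation p = 1, both sides), and the groups overlapped.

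GATA6, a zinc finger factor (chr18:22169443-22202528, plus strand), did not pass the test. It had 679, 635 and 694 counts in control and 571, 540 and 620 in ILL libraries. After scaling the groups overlapped, at 18.4 ± 1.10 and 16.6 ± 1.05 CPM (n = 3 each), with a log2 fold change of -0.15 (SE 0.10, edgeR adjusted p = 0.167). It passed with library size as the only scaling (-0.22, adjusted p = 0.0457) and by limma at a mean FPKM of at least 1, with adjusted p of 0.0277 on log2(FPKM + 1) and 0.0281 on log2(FPKM + 0.1). The antisense genes AC091588.3 and GATA6-AS1 share 321 and 240 exon bases with it, 8.14% and 6.08% of its exon length.

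The cut-homeodomain genes ONECUT1 and ONECUT2 differed widely in level. ONECUT2 (chr18:57435685-57491297, plus strand) had 141, 135 and 121 counts in control and 189, 204 and 202 in ILL libraries, without overlap. Its level rose from 3.63 ± 0.210 to 5.70 ± 0.272 CPM (n = 3 each), a 1.57-fold change with a log2 fold change of 0.65 (SE 0.18, edgeR adjusted p = 0.00265). ONECUT2 thus had the largest log2 fold change among the factors that rose. ONECUT1 (chr15:52756989-52791078, minus strand) had 6 counts in control library 3, 6 in ILL library 1 and 0 in the other 4 libraries, and was not tested. The exact Poisson 95% interval was 2.20 to 13.1 for 6 counts and reached 3.69 for 0 counts, so no difference was detectable at this depth; the interval covers counting error only.

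**Figure D3:**
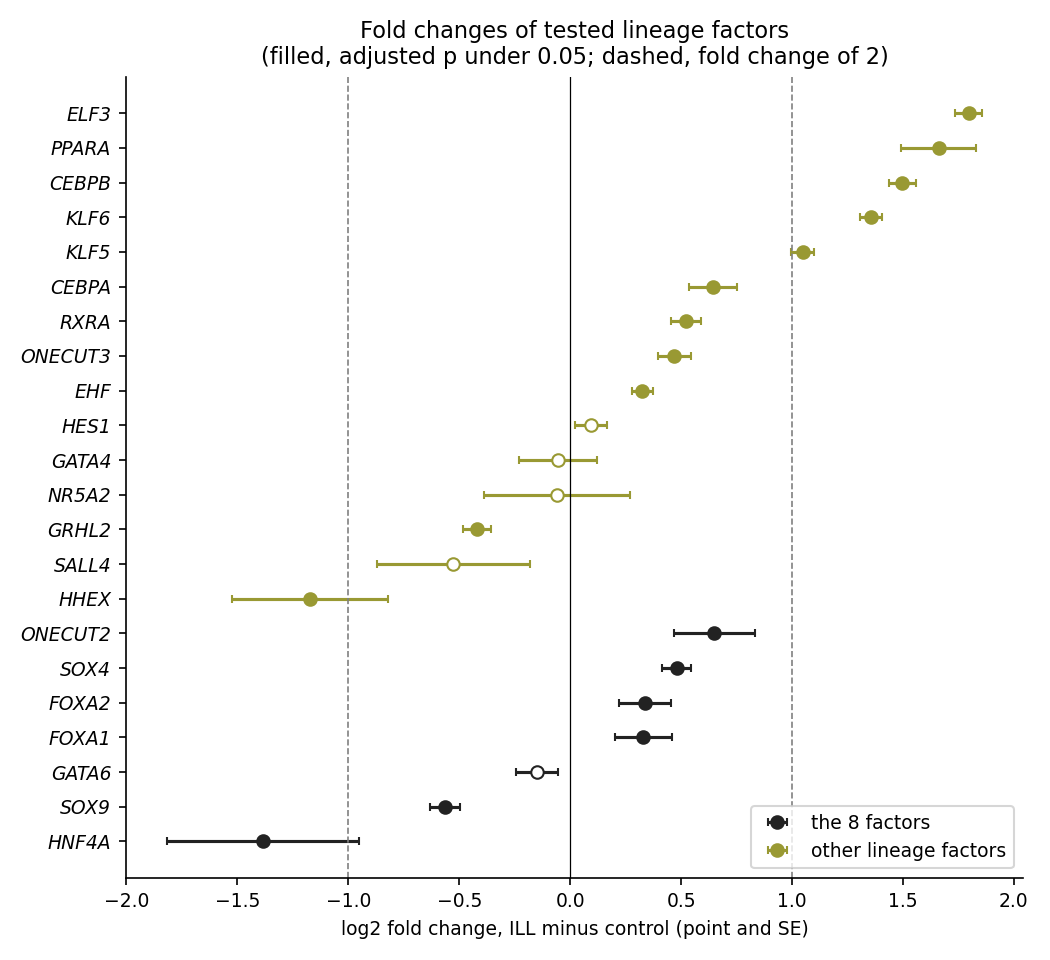
Log2 fold change (ILL minus control, point and SE from edgeR) of the 7 tested factors and of 15 other tested lineage factors. HNF4A is the only black point past a dashed line, at -1.39, and ELF3 is the highest of the others, at 1.80.

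Levels of different genes were compared per length, as FPKM (fragments scaled to gene length and library size). In control cells SOX9 was highest, at 16.2 to 18.5 FPKM, followed by SOX4 at 7.75 to 8.23 and GATA6 at 4.96 to 5.52, and these ranges did not overlap. FOXA2 (3.76 ± 0.254 FPKM) and FOXA1 (2.94 ± 0.585 FPKM) came next with overlapping ranges. HNF4A (0.246 ± 0.0401 FPKM) and ONECUT2 (0.226 ± 0.0138 FPKM) were more than an order of magnitude lower and also overlapped. In ILL cells some neighbours in this order came closer and others moved apart. SOX9, at 10.3 to 11.6 FPKM, overlapped with SOX4, at 10.4 to 10.9 FPKM, and FOXA2 (4.53 ± 0.338 FPKM) overlapped with GATA6 (4.46 ± 0.290 FPKM). ONECUT2, at 0.323 to 0.350 FPKM, lay above HNF4A, at 0.0804 to 0.0960 FPKM. ONECUT1 was listed at 0 FPKM except in control library 3 (0.0304) and ILL library 1 (0.0296).

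**Figure D4:**
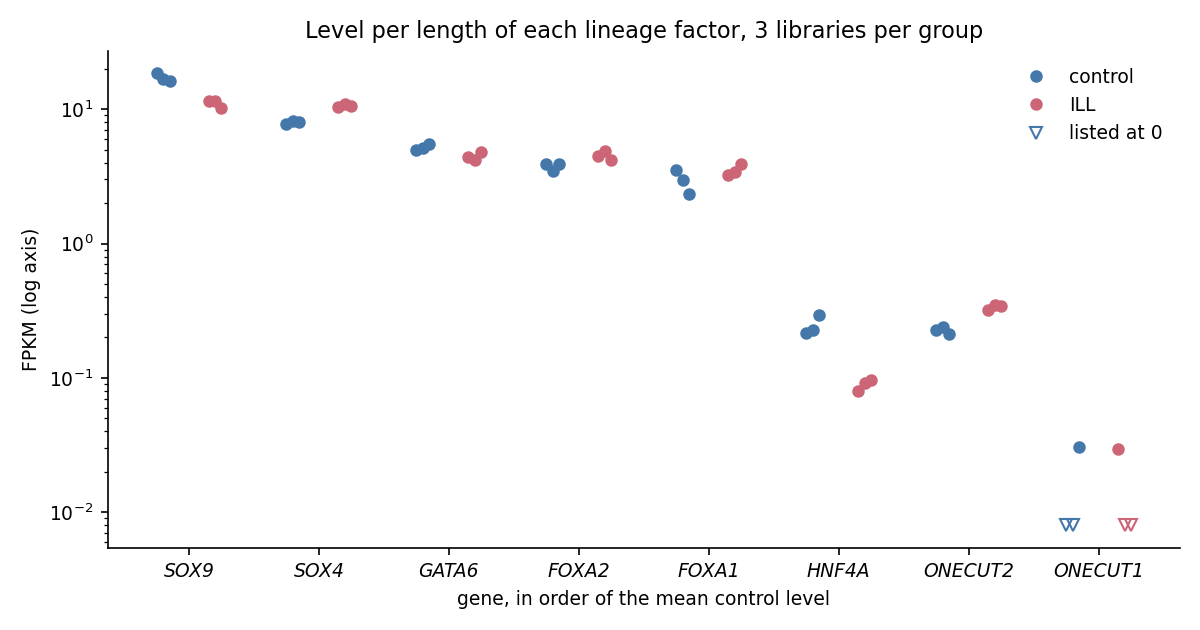
FPKM of the 8 factors in each library on a log axis, ordered by the mean control level, with triangles for values listed at 0. SOX9 falls to the level of SOX4 with ILL, and HNF4A falls below ONECUT2.

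Of the partners of the factors, ONECUT3 passed the test and GATA4 and HES1 did not. FOXA3 had 5 to 15 counts and was not tested, and SOX17, a factor of the extrahepatic bile duct, had 0 counts in every library. ONECUT3 rose from 3.78 ± 0.177 to 4.99 ± 0.258 FPKM (n = 3 each), with a log2 fold change of 0.47 (SE 0.07, edgeR adjusted p = 4.4e-06), and its level per length was above that of ONECUT2 in both groups. GATA4 had a log2 fold change of -0.06 (SE 0.18, edgeR adjusted p = 0.786), and HES1, a Notch target, one of 0.09 (SE 0.07, edgeR adjusted p = 0.254).

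Among 24 other lineage factors, 15 were tested, of which 5 were higher and 1 was lower as DEGs, against 12.5% and 11.4% of all tested genes. The median log2 fold change of the 15 was 0.47. ELF3, an epithelial ETS factor, rose from 54.9 ± 1.95 to 190.6 ± 15.3 CPM (log2 fold change 1.80, SE 0.06, edgeR adjusted p = 2.7e-18). PPARA, the nuclear receptor of fatty acid oxidation, rose from 3.02 ± 0.504 to 9.56 ± 0.915 CPM, and CEBPB, a leucine zipper factor of the acute phase response, from 86.4 ± 3.29 to 243.8 ± 20.2 CPM. KLF6 and KLF5 were the remaining DEGs that rose. HHEX, a homeobox factor of early liver development, fell from 90, 63 and 68 to 25, 39 and 29 counts (log2 fold change -1.17, SE 0.35, edgeR adjusted p = 0.00467). CEBPA, which maintains hepatocyte genes, rose by a log2 fold change of 0.64 (edgeR adjusted p = 8.8e-06) without reaching the DEG cutoff.

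The 20 biliary genes, of which 15 were tested, included 4 DEGs, all higher, with a median log2 fold change of 0.24. By adjusted p alone 7 rose and 5 fell. Over all tested genes, 12.5% were higher and 11.4% lower as DEGs, and 36.2% rose and 36.9% fell by adjusted p alone. The shares without regard to direction were close to those over all tested genes, 23.9% for DEGs and 73.1% for adjusted p alone. CD24, a surface glycoprotein, had a log2 fold change of 1.78 (SE 0.05, edgeR adjusted p = 1.8e-19). GGT1 (log2 fold change 1.43) and MUC1 (1.36) were also among these DEGs. Reads of CD24, GGT1 and the keratins can be shared with near-identical copies, and how the counting split them is not stated. KRT7 rose (0.64, edgeR adjusted p = 2.6e-12) and EPCAM rose (0.24, 0.000187), while KRT19 fell (-0.18, 0.00254) and KRT18 fell (-0.82, 4.2e-14).

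Of 25 hepatocyte genes, 13 were tested and none was a DEG by edgeR, against 23.9% of all tested genes. By unadjusted p under 0.05 (edgeR), 2 of the 13 passed, both higher, against 9741 of all 13066 tested genes (4816 higher). DESeq2 called 1 gene higher, HPX, which was not among the 13 and had few counts (0, 0 and 4 in control, 8, 13 and 8 in ILL libraries). The median log2 fold change of the 13 tested genes was 0.52, but 12 of them did not pass by adjusted p. The summed level of the 25 was 41.6 to 45.5 CPM in control libraries and 40.9, 43.7 and 72.4 CPM in ILL libraries 1, 2 and 3, and 9 of the 13 tested genes had their highest value in ILL library 3. ALB, the albumin gene, had 245, 160 and 240 counts in control and 214, 240 and 541 in ILL libraries. Its log2 fold change was 0.69 (edgeR adjusted p = 0.0115), without ILL library 3 it was 0.15 (adjusted p = 0.495), and without control library 2 it was 0.54 (adjusted p = 0.0772). ALB did not pass by DESeq2 (adjusted p = 0.179) or in the 3 limma fits on FPKM (adjusted p = 0.112 to 0.298). TTR, another plasma protein gene, had at most 2 counts in any library.

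Notch signaling directs progenitors to the biliary fate, and SOX9 is among its targets. Of 24 Notch genes, 21 were tested, with 5 DEGs higher and 2 lower, against 12.5% and 11.4% of all tested genes. The median log2 fold change of the 21 was -0.22. The Notch DEGs that rose numbered 3 without ILL library 1 and 3 when 10 counts were required in every library. HEY1, a Notch target, had 12, 9 and 13 counts in control and 68, 21 and 33 in ILL libraries, the highest log2 fold change of the list (1.90, SE 0.52, edgeR adjusted p = 0.00218). The ligand gene JAG1 rose from 97.6 ± 11.4 to 263.6 ± 10.4 CPM (log2 fold change 1.43, SE 0.07, edgeR adjusted p = 9.8e-16), the receptor gene NOTCH3 had a log2 fold change of 1.36 and the protease gene ADAM17 one of 1.20. The receptor gene NOTCH4 fell from 201, 120 and 178 to 43, 48 and 51 counts, and NRARP, a Notch target and feedback inhibitor, from 720, 650 and 494 to 173, 213 and 208 counts (log2 fold change -1.58, SE 0.14, edgeR adjusted p = 1.6e-10).

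Hippo signaling, through YAP and TEAD, also acts on the biliary fate. All 22 Hippo genes were tested, with 1 DEG higher and 5 lower, against 12.5% and 11.4% of all tested genes. The median log2 fold change of the 22 was -0.19, and by adjusted p alone 5 rose and 11 fell. ANKRD1, a YAP target, fell from 117.5 ± 6.38 to 20.5 ± 3.04 CPM (log2 fold change -2.52, SE 0.08, edgeR adjusted p = 6.8e-19), AXL had a log2 fold change of -2.38 and TEAD4 one of -1.81. NF2 (-1.70, edgeR adjusted p = 7.5e-18) and TEAD1 (-1.01) were the other DEGs that fell. TEAD1 lay close to the cutoff, at 0.497 of its control level. The Hippo DEGs that fell numbered 4 with DESeq2 size factors and when 10 counts were required in every library. They also numbered 4 without control library 1, without ILL library 3 and by limma on log2(FPKM + 1). VGLL4, a TEAD cofactor that competes with YAP, was the DEG that rose (1.26), and YAP1 itself had a log2 fold change of 0.23 (edgeR adjusted p = 0.000179).

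Of 15 other SOX genes, 7 were tested, and SOX15 was the only DEG, against 23.9% of all tested genes. SOX15 rose from 29.2 to 61.6 CPM (log2 fold change 1.08, SE 0.07, edgeR adjusted p = 8.6e-13). By adjusted p alone SOX7, SOX13, SOX18 and SOX21 fell, against 36.9% of all tested genes. The median log2 fold change of the 7 was -0.16. SOX9 thus had a log2 fold change between those of SOX13 (-0.40) and SOX18 (-0.70).

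**Figure D5:**
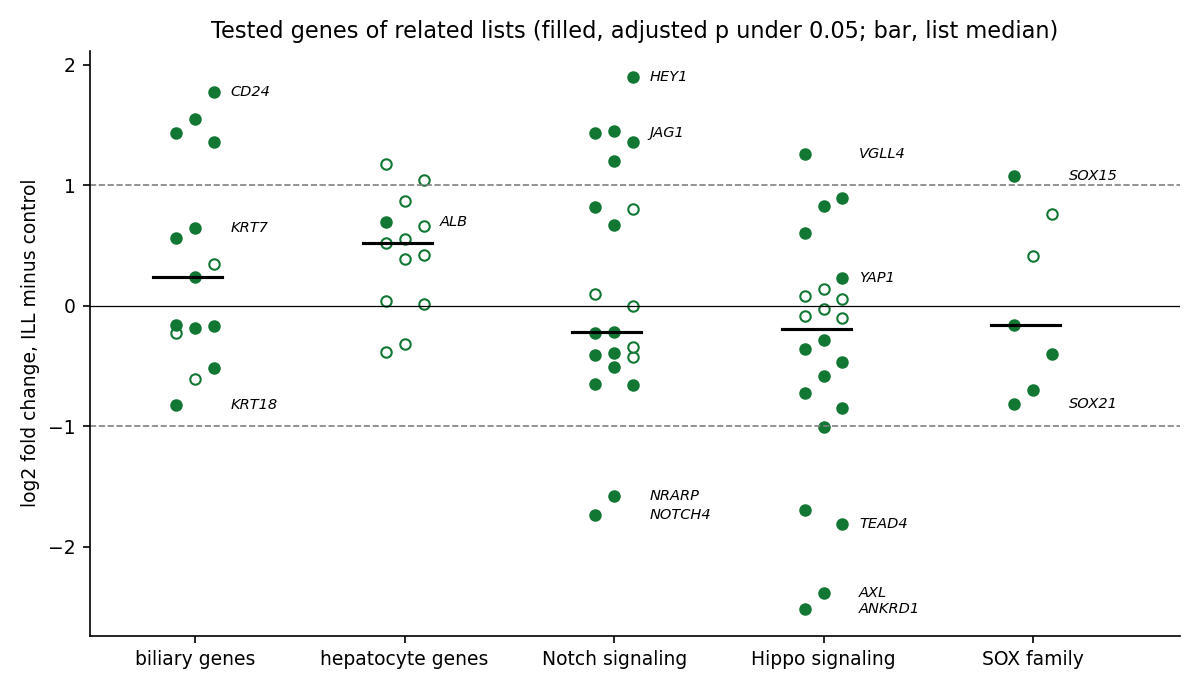
Log2 fold change (ILL minus control) of each tested gene in 5 related lists, filled where the adjusted p was under 0.05, with a bar at the list median and dashed lines at a fold change of 2. Medians run from -0.22 for Notch to 0.52 for hepatocyte genes, and ANKRD1 is lowest at -2.52.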

How the data were processed

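RNA of 3 control and 3 ILL libraries was measured as counts and FPKM per gene symbol. The authors deposited raw read counts and, separately, FPKM values for the same 19470 genes; the submitters' processing notes name GRCh38 and DESeq2, while the aligner, counter, annotation and strand setting are not given in the sources used here. The members and gene lists were chosen with earlier results of these data known.

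Counts were filtered with filterByExpr, scaled by TMM and tested with edgeR 4.0.16 (quasi-likelihood, R 4.3.3, Benjamini-Hochberg). FPKM was used for levels between genes and for limma 3.58.1 alternatives; DESeq2 1.42.0 was another. Other alternatives were scaling, filters, pseudocounts, a replicate block and leaving out each library. Log2 ratios used a pseudocount of 0.5 counts. Scripts were tested on simulated data. Within-group libraries differed by more than sampling noise and were kept as 3 samples.

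Named were the 8 members, preset partners and lineage genes, and per list at most 3 DEGs with the highest and 3 with the lowest fold change (mean of at least 1 CPM, no overlap). The genes most like a called member were to be named too, but HNF4A had a mean under 1 CPM. KRT18, CEBPA, KLF5, KLF6, YAP1, NF2, TEAD1, APOH, HPX, HEY1, COL1A1, LUM, VWF, CD68, other SOX genes and the zero-count markers were named after their values were seen. Positions are from GENCODE 29 (GRCh38). Depth limits genes of a few counts, such as ONECUT1. Values of some listed genes are not reported here.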

Additional observations from a re-analysis of the deposited data

How the results depend on the processing

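HNF4A was the only factor past both cutoffs in every edgeR and DESeq2 fit, with log2 fold changes of -1.47 to -1.24 when 1 library was left out and -1.38 with the replicate number as a block (adjusted p = 0.0125). On log2(FPKM + 1) without a filter limma gave -0.19 for HNF4A, since a pseudocount of 1 exceeds its level, and with a mean FPKM of at least 1 HNF4A was not tested; 0 factors passed both cutoffs in each of the 3 limma fits. By adjusted p alone, 9547 genes and 6 factors passed (SOX9 -0.56, SOX4 0.48, FOXA1 0.33, FOXA2 0.34, ONECUT2 0.65, and HNF4A), as did 11 other lineage factors, 12 biliary, 1 hepatocyte, 16 Notch, 16 Hippo and 5 other SOX genes. DEGs over all genes numbered 3120 (1635 higher, 1485 lower), 3083 to 3165 with 1 library left out, 3111 with the replicate block, and 1591 (668 higher, 923 lower) or, without a filter, 1609 (680 higher, 929 lower) by limma on log2(FPKM + 1). These limma fits called 3 other lineage factors, 4 Notch genes and 0 other SOX genes, and limma on log2(FPKM + 0.1) also called 4 Notch genes. Of the hepatocyte genes, 1 was called without a filter (HPX), by DESeq2 (HPX) and at 10 counts or more in every library (APOH); leaving out 1 library gave 0 to 1 (APOH without ILL library 2), and 1 to 2 other SOX genes (2 without control library 3 or without ILL library 3). GATA4 ranged from -0.14 to 0.079 with 1 library left out, turning without ILL library 3 (adjusted p = 0.722). The difference in the FOXA1 to FOXA2 ratio was 0.0077, and -0.18 to 0.12 with 1 library left out, turning without control library 3 (-0.18) or ILL library 3 (-0.13). The SOX4 difference was 0.48 on CPM in place of FPKM. Without TMM the median of all genes was -0.07. Same-numbered libraries had correlations of 0.011, -0.022 and -0.018, and the other pairs had -0.013 to 0.030. Pairing by number was thus not detected, although 3 libraries per group cannot exclude it. The replicate block changed no call among the factors. Where no cause is given, the cause was not tested.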
